A study of Mus musculus with 7 samples.

Results

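The 10 genes described here carry the growth hormone signal in liver, and the data are the CTCF and Rad21 binding sites around them. The genes are Ghr, Jak2, Stat5a, Stat5b, Socs2, Cish, Igf1, Igfals, Igfbp1 and Bcl6, out of 22380 protein-coding genes in the GENCODE vM1 annotation of the mm9 genome (NCBIM37). Each gene span was extended by 50 kb on both sides, and every deposited peak that shared at least 1 bp with that window was kept. Every window held CTCF peaks, as did 88.1% of those of all genes, and Rad21 peaks, as did 85.8%. In all, the windows held 132 of 76683 CTCF peaks, 132 of 67369 Rad21 peaks and 74 of 52436 CTCF sites that the authors had sorted into classes. Stat5a and Stat5b are neighbours with overlapping windows, so the 10 windows form 9 separate stretches of 1481.7 kb in all. Of the peaks, 11 CTCF and 17 Rad21 peaks fell in the windows of both genes. Windows also hold other genes, from 0 for Socs2 and Igf1 to 9 for Igfals.

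ChIP-seq was carried out on whole liver of male mice of an outbred strain, Crl:CD1(ICR), aged 8 weeks. CTCF, a zinc finger protein that binds a directional DNA motif, was measured in 4 libraries. Rad21, a subunit of the ring-shaped cohesin complex, was measured in 3 libraries. No treatment, transgene or deletion is named for any library, and the tissue holds all liver cell types. The deposited lists pool the reads of all libraries of a factor, so no value has a spread between mice, no test between groups was possible, and all comparisons below are descriptions.

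Growth hormone binds a receptor at the hepatocyte surface, the receptor-bound kinase JAK2 then phosphorylates STAT5A and STAT5B, and these enter the nucleus and bind DNA as dimers. Their target genes include feedback inhibitors (Socs2, Cish) and secreted proteins of the insulin-like growth factor system (Igf1, Igfals). STAT5 dimers prefer a palindrome of the form TTCNNNGAA, where N is any base. Cohesin forms loops that halt at CTCF sites, while cohesin sites without CTCF (CNC sites) are known from enhancers and promoters of genes active in a tissue.

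Sequence was examined first at the Rad21 peaks without CTCF, since the pathway acts through a DNA-binding factor with a known motif. Of the genes, Socs2, Cish, Igf1 and Igfals were named above as its targets. Inside the Rad21 peak at a Socs2 start (chr10:94879211-94879884), and 113 bp before the Rad21 peak at a Cish start (chr9:107199122-107199456), lay pairs of STAT5-type palindromes with the same spacing. Both stretches are written 5′ to 3′ on the strand of the gene, with the palindromes in capitals.

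Socs2, chr10:94879528-94879567, minus strand: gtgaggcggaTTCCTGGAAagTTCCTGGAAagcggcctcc

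Cish, chr9:107198980-107199019, plus strand: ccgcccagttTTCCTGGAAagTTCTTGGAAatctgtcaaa

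Over the 20 bases from the first to the last capital, the Socs2 and Cish stretches differed at 1 base, C15T, counted from 1 at the 5′ end with the Socs2 base first. The centre of the Socs2 pair lay 56 bp before an annotated start, in an intron of transcripts that start further upstream, and 255 bp from the Rad21 summit. That of the Cish pair lay 42 bp before a start, in an exon outside the coding sequence, and 320 bp from the Rad21 summit. This arrangement (TTCNNNGAA, 2 bases of any kind, TTCNNNGAA, a palindrome that reads alike on both strands) was searched for after it had been seen at these genes. It was in 1 of 15321 Rad21 peaks without CTCF (the Socs2 peak), in 2 of 52048 Rad21 peaks with CTCF, and in 1 of 32851 RefSeq promoters of 300 bases (GRCm38.p6, the Cish promoter). With gaps of 0 to 20 bases allowed, such a pair was in 25 promoters (0.0761%), in 10 Rad21 peaks without CTCF (0.0653%) and in 58 with CTCF (0.111%). Socs2 had no entry in the promoter table.

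Single palindromes within 100 bp of a Rad21 summit were found at 7 of the 53 Rad21 peaks without CTCF (13.2%, Wilson 95% interval 6.55 to 24.8). In the whole list the share was 5.92% of 15321 peaks without CTCF, and it was 6.21% and 6.06% at places 2 kb to either side of those summits. At such places beside the member summits it was 1 and 3 of 53. At the 79 member peaks with CTCF it was 7.59% (6 peaks, interval 3.53 to 15.6), against 5.07% in the whole list. The member share rests on 7 peaks, of which 2 are in Igf1. Counts this small also parted from the list away from summits: TTGCNNAA, letters bound by C/EBP proteins, was at 9 of 53 places 2 kb to the lower-coordinate side of the member summits (17%, interval 9.2 to 29.2), against 7.8% in the list. Most of these peaks were weak: among the 22 member peaks without CTCF with a score of 100 or more (10 times the −log10 q-value), 1 held the letters (4.55%). Over whole peaks, 10 of the 53 held the letters (18.9%), the Socs2 start peak among them, and no such share was computed for the list. The stretches within 100 bp of a summit are shown on the plus strand with the palindrome in capitals. These 7 peaks were picked by that distance, so the closeness of the letters to the summit follows from the rule.

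Ghr intron, chr15:3399769-3399797: attctggcagTTCTTTGAAgctatttact

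Stat3 intron in the Stat5a window, chr11:100792239-100792267: acactccccgTTCCACGAAgagcctgccc

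Socs2 exon outside the coding sequence, chr10:94848548-94848576: tgtcacagaaTTCCTTGAAcaaaattaaa

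Intergenic peak 9.582 kb past a Cish start, chr9:107211118-107211146: agtgagttagTTCTAAGAAagagtgccag

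Igf1 intron, chr10:87364869-87364897: cgggctccagTTCTCAGAAaggaaattcg

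Igf1 intron, chr10:87369814-87369842: tgacacatagTTCACAGAAaaagagaaca

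Intergenic peak 7.939 kb before Igfals, chr17:25006651-25006679: cctgtcccacTTCTTAGAAgcctcctgcg

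Their centres lay between 4 bp (Igfals) and 93 bp (the first Igf1 peak) from the Rad21 summit, and in the second Igf1 peak, in Ghr and in Socs2 they lay 5, 16 and 8 bp away. The stricter letters TTCCNGGAA were within 100 bp of 0 of the 53 summits, which allows a share of up to 6.76%, against 0.907% of all peaks without CTCF. A match is a stretch of letters, and whether STAT5 occupied it was not measured.

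Of the 132 Rad21 peaks in the windows, 53 had no CTCF peak on them (40.2%, Wilson 95% interval 32.2 to 48.7, which covers counting error only). In the whole list this share was 22.7% of 67369 peaks, and over the windows of all protein-coding genes it was 22.0%. Peaks without CTCF were low in both sets. Their median fold, the ratio of fragments at the summit to the local background with 1 added to each, was 3.08 in the windows and 3.35 in the whole list, while peaks with CTCF had medians of 5.06 and 5.97. The fragments behind these folds, recovered from the deposited columns, ranged from 17 to 80 for the peaks without CTCF (median 34) and from 18 to 644 for the peaks with CTCF (median 73). The highest Rad21 peak without CTCF, fold 5.68 at the start of Ghdc in the Stat5b window, was exceeded by 3.32% of its kind in the list.

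All 10 windows held at least 1 Rad21 peak without CTCF, as did 50.3% of all protein-coding genes. The number of such peaks per 100 kb of window had a median of 4.26 over the 10 genes, from 0.62 (Jak2) to 6.36 (Stat5a). Over all genes the median was 0.206 and the upper quartile 1.62. Peaks with CTCF were nearer to the common level, with a median of 5.9 per 100 kb against 3.82 over all genes. Stat5a, Igfals, Igf1, Stat5b and Socs2 had more CNC peaks per 100 kb than between 98.1% and 99.2% of genes. At Stat5a only 1 of the 8 lay in the gene, and the nearest start was that of Stat5b for 4 and of Stat3 for 3. Most of the 8 also fell in the Stat5b window, so the same peaks count for both genes in this ranking and in the median. Bcl6, Cish and Ghr stood above 91.7%, 88.6% and 87.8% of genes, and Igfbp1 and Jak2 above 65.9% and 53.2%.

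**Figure D1:**
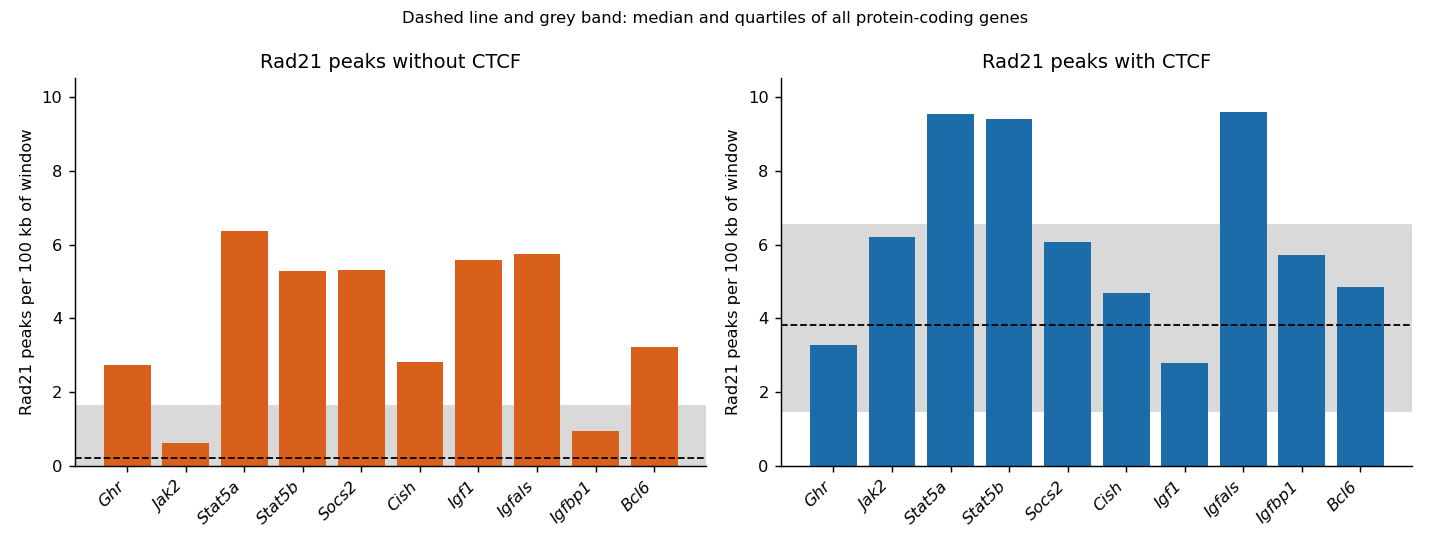
Number of Rad21 peaks per 100 kb of window (vertical axis) for each of the 10 genes, without CTCF on the left and with CTCF on the right. Dashed lines and grey bands give the median and quartiles of all 22380 protein-coding genes. On the left 8 of the 10 bars rise above the band, from 2.73 (Ghr) to 6.36 (Stat5a), and on the right only the bars of Stat5a, Stat5b and Igfals do so.

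At transcription starts the genes were alike in having cohesin when peaks of every score were counted. A Rad21 summit lay within 1 kb of an annotated start of all 10 genes, as for 52.3% of protein-coding genes. A CTCF summit did so for 8 of them, against 55.1% of genes. A Rad21 peak without CTCF did so for 8 of them, against 9.33% of genes. The 10 genes had more annotated starts (median 4.5) than genes at large (median 2), and among the 8985 genes with 3 or more starts the share was 14.7%, with all 7 members of that kind among them. The exceptions were Jak2 and Igfbp1, where Rad21 at the start lay on a CTCF peak. At Igf1 and Bcl6 the start held Rad21 without CTCF and no CTCF summit. Some of these counts rest on weak peaks. Among peaks of score 100 or more, Rad21 was near a start of 7 genes, CTCF of 6 and Rad21 without CTCF of 6. The shares of all genes at that score were not computed.

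Height at these starts was modest, and the local background differed between genes. The start peaks without CTCF had folds of 4.48 (Bcl6), 4.04 (Stat5a), 3.29 (Ghr), 2.91 and 2.74 (Socs2), 2.7 (Cish), 2.67 (Stat5b), 2.52 (Igf1) and 1.93 (Igfals). The Igfals value was the lowest fold of the 53 peaks, with 55 fragments over a background of 28. The higher Socs2 peak had 73 fragments over 24.5 and Cish 62 over 22.3, and Bcl6 reached its higher fold with 59 over 12.4. The Poisson 95% interval of the Bcl6 count, 44.9 to 76.1, covers the counting error of the pool only.

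**Figure D2:**
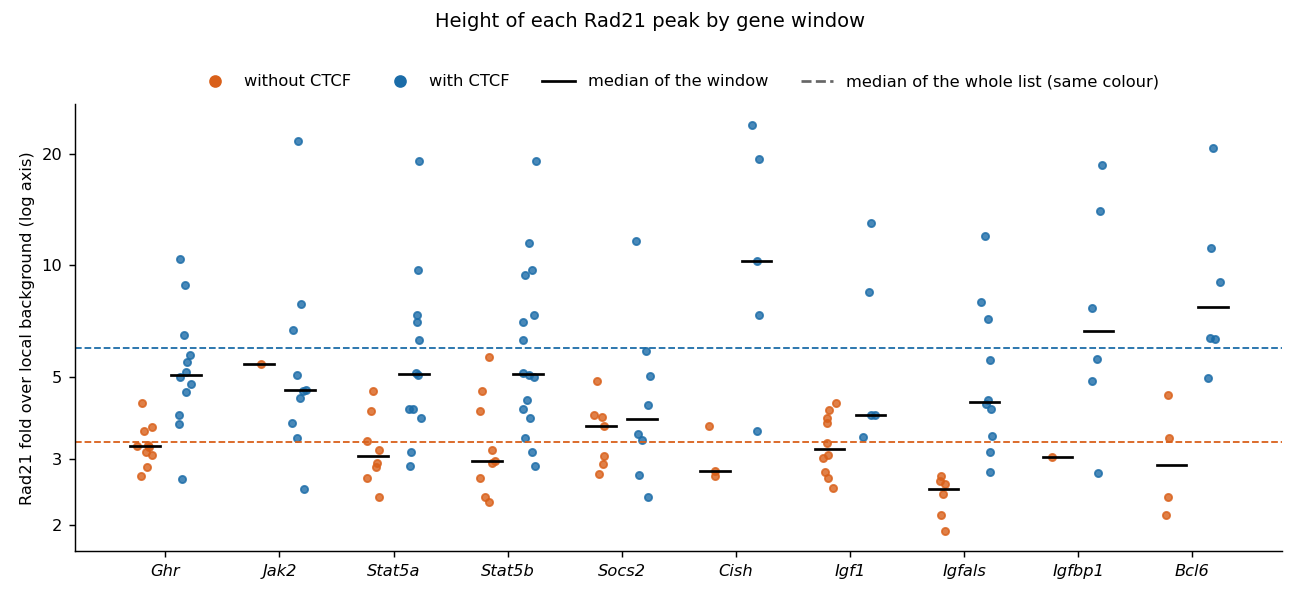
Rad21 fold over local background (vertical axis, log scale) of every Rad21 peak in each window, orange without and blue with CTCF. Black lines are medians of a window and dashed lines medians of the whole list. Orange points run from 1.93 to 5.68 and blue points reach 23.9 at Cish, and in every window but that of Jak2 the orange median lies below the blue.

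Ghr encodes the growth hormone receptor and is the longest of the genes at 265.733 kb. Its window held 27 CTCF and 22 Rad21 peaks, 10 of them without CTCF. The strongest CTCF peak of the window sat on a start, 17 bp into the gene at chr15:3533286-3533731, with a fold of 25.1, 725 fragments and an intra-TAD anchor label. An intra-TAD anchor is a CTCF site from which the authors predicted a loop inside a topologically associating domain (TAD). Its motif was on the minus strand and pointed into the gene, and Rad21 there had a fold of 10.4. At 1.173 kb from the 5′ end, a Rad21 peak without CTCF (fold 3.29, 73 fragments) lay in an exon outside the coding sequence, 277 bp past another start. A further 4 CNC peaks were intronic, 3 lay 18.311 to 37.114 kb upstream of the gene, and 2 lay in the neighbour Sepp1. The highest, with a fold of 4.25, was the intergenic peak 18.311 kb upstream.

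Jak2 encodes the kinase that the receptor carries. It had 14 CTCF and 11 Rad21 peaks, and a single Rad21 peak had no CTCF. That peak was intronic, 33.749 kb from the start at chr19:29359657-29360239, and with a fold of 5.43 (34 fragments) it was the second highest of the 53. At the start itself a CTCF peak with a fold of 12.4 lay 83 bp upstream. The strongest Rad21 peak, with a fold of 21.6, lay 103.899 kb from the start on a TAD anchor with its motif on the minus strand, next to an intra-TAD anchor of the same direction. TAD anchors are CTCF sites that the authors placed at domain boundaries.

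Stat5a and Stat5b encode the transcription factors of the pathway and lie side by side on chromosome 11, with Stat3 beyond Stat5a. Stat5a had 16 CTCF and 20 Rad21 peaks, of which 8 lacked CTCF, and Stat5b had 22 and 25, of which 9 lacked CTCF. A Rad21 peak without CTCF sat 53 bp past a Stat5a start (fold 4.04, 80 fragments, the most of the 53). Stat5b itself held 5 such peaks, all in introns, and 4 of them fell in the Stat5a window too. The nearest to a Stat5b start had a fold of 2.67 and lay 890 bp past it. The highest CNC peak of the Stat5a window, fold 4.6 at chr11:100747459-100748163, was in an exon of Stat3 outside its coding sequence. Both windows shared their strongest site, an intra-TAD anchor in Stat3 at chr11:100754593-100755174. It had a CTCF fold of 29.1 (1056 fragments), the highest of all CTCF peaks in the windows, and a Rad21 fold of 19.1.

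Socs2 encodes an inhibitor that binds the activated receptor. Its window had no other protein-coding gene, and held 10 CTCF and 15 Rad21 peaks, 7 of them without CTCF. Of these, 5 lay in the gene span, at 15.7 per 100 kb, and they included the start peak with the palindrome pair shown above. Another of the 5 lay 428 bp past a start, with a fold of 2.74 and 68 fragments. An intra-TAD anchor stood 923 bp upstream of the gene (CTCF fold 19.7, Rad21 fold 11.6) with its motif pointing away from it. A second intra-TAD anchor, of the same direction and with a CTCF fold of 5.21, was 1.433 kb past the 5′ end. The highest CNC peak, fold 4.89, was intergenic at 76.247 kb past the 5′ end, and its nearest start was that of Cradd.

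Cish encodes a related inhibitor of STAT5 signalling and is short, at 6.759 kb. It had 9 CTCF and 8 Rad21 peaks, and 4 of the CTCF sites were intra-TAD anchors. The anchor 4.897 kb upstream of the 5′ end had a CTCF fold of 21.9 and a minus strand motif, and that 1.616 kb upstream had a fold of 8.54 and a plus strand motif. The downstream anchor, 40.08 kb past the 5′ end and in an exon of Hemk1, carried the strongest Rad21 peak of all windows (fold 23.9, 644 fragments). Between the plus strand anchor and this minus strand anchor lay Cish and all 3 of its CNC peaks. These were at a start (fold 2.7) and at 11.822 and 12.711 kb past the 5′ end (folds 3.69 and 2.8), and the last held palindromes at 3 places.

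Igf1 encodes insulin-like growth factor 1, the main growth factor that liver secretes under growth hormone. It was the only gene whose CNC peaks outnumbered the Rad21 peaks with CTCF, at 10 to 5, and 2.21% of all protein-coding genes had such an excess. Its share without CTCF was 66.7% of 15 peaks (Wilson 95% interval 41.7 to 84.8). Of the 10, 9 lay inside the gene, 8 of them between 36.423 and 68.83 kb past the 5′ end. The highest, fold 4.26 with 44 fragments (Poisson 95% interval 32 to 59.1), was intronic at chr10:87364639-87364980 and held a palindrome 93 bp from its summit. No other protein-coding gene overlapped the window.

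The 2 intra-TAD anchors of the Igf1 window enclosed the gene with motifs facing each other, and the 2 TAD anchors beside the Igfbp1 start faced away from each other. Their CTCF motifs are shown 5′ to 3′ on the strand of the motif, with the 19 bases of the best match in capitals.

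Igf1, upstream, chr10:87317337-87317375, plus strand: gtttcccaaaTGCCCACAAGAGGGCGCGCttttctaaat

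Igf1, downstream, chr10:87434470-87434508, minus strand: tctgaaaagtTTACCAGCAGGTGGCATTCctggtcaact

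Igfbp1, upstream, chr11:7095124-7095162, minus strand: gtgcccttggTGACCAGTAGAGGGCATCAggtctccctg

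Igfbp1, in an intron, chr11:7100200-7100238, plus strand: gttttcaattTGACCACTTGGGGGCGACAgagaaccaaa

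The Igf1 anchor 3.686 kb upstream of the 5′ end had a CTCF fold of 21.1 and a Rad21 fold of 8.47. That 113.466 kb past the 5′ end had a CTCF fold of 16.3 and a Rad21 fold of 13. Of the 10 CNC peaks, the 9 inside the gene lay between these anchors.

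Igfbp1 encodes a liver binding protein of insulin-like growth factors. It had 10 CTCF peaks and 7 Rad21 peaks, a single one without CTCF (fold 3.04, 32 fragments, 4.801 kb upstream of the gene). The TAD anchor 2.652 kb upstream had a CTCF fold of 5.84 and no Rad21 peak on it in the pooled list. The TAD anchor 2.42 kb past the start had a CTCF fold of 14.1, and both had a motif pointing outward from the start. The strongest sites of the window were other CAC sites (cohesin-and-CTCF sites without an anchor label), in Adcy1 (CTCF fold 22.8) and in Igfbp3 (CTCF fold 20.9, Rad21 fold 18.6).

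Igfals encodes the acid-labile subunit that holds insulin-like growth factor 1 in a complex in serum. Its window was the most crowded, with 9 other genes, 14 CTCF peaks and 16 Rad21 peaks of which 6 lacked CTCF. Only 1 of these 6 lay in the gene, 160 bp before a start. By nearest start, 2 of the 6 belonged to Igfals, 2 to Hagh and 1 each to Nubp2 and Mapk8ip3, so the high density of the window is shared with its neighbours. The strongest CTCF site of the window was in an intron of Hagh, 36.312 kb upstream (fold 20.3, Rad21 fold 12), and the single anchor lay 9.189 kb past the 5′ end in a coding exon of Spsb3. At the Igfals start itself, a Rad21 peak with CTCF had its summit 259 bp upstream. Of the 3 RefSeq promoters of Igfals, 2 held a single palindrome, and 8.3% of all 32851 promoters held at least 1.

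Bcl6 encodes a transcriptional repressor whose gene growth hormone signalling turns down in liver. It had 10 CTCF and 10 Rad21 peaks, and 7 of the CTCF sites were anchors, 2 of TADs and 5 within TADs. At 5.65 anchors per 100 kb the window stood above 99.2% of genes. A run of 6 anchors from 26.273 kb past the 5′ end to 2.449 kb before it all had the motif on the plus strand, against the direction of the gene. The strongest of them, 2.449 kb upstream, had a CTCF fold of 20.6, and the anchor 5.31 kb past the 5′ end had a fold of 4.27 and no Rad21 peak. The TAD anchor 34.94 kb past the 5′ end was on the minus strand, with the strongest Rad21 peak of the window at a fold of 20.7. Of the 4 CNC peaks, the highest (fold 4.48) was 68 bp before an internal start and in a coding exon, and the other 3 were intergenic upstream. Of the 2 RefSeq promoters of Bcl6, 1 held 3 palindromes and 1 held 1, and neither had a peak on it. At least 2 palindromes were in 0.457% of all promoters.

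**Figure D3:**
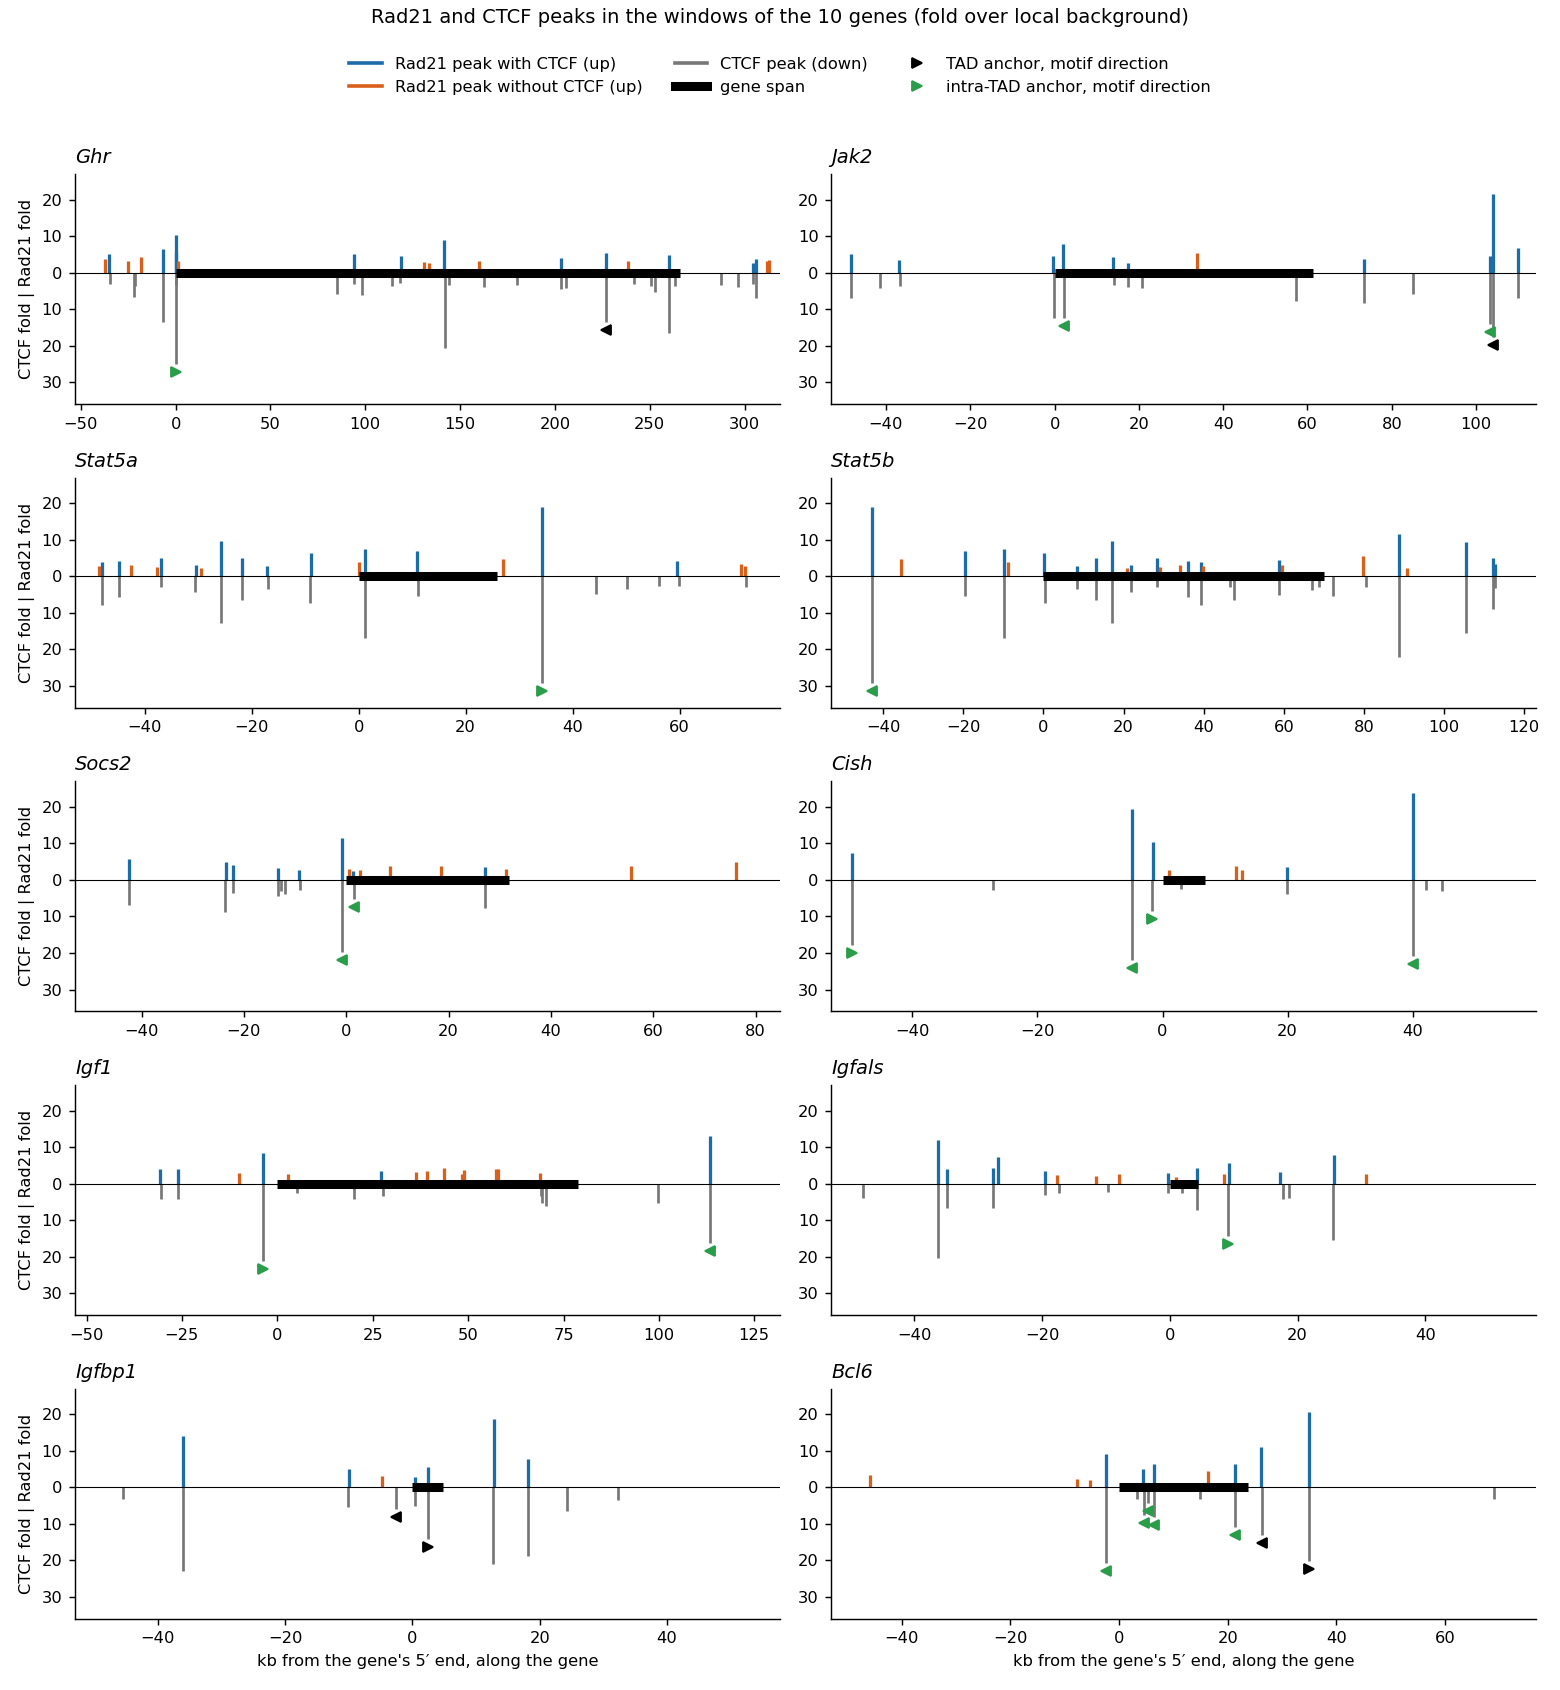
Peaks along each gene, in kb from its 5′ end in the direction of transcription (horizontal axis). Upward lines are Rad21 folds, orange without and blue with CTCF, downward lines are CTCF folds, thick bars are gene spans and triangles give the motif direction of TAD (black) and intra-TAD (green) anchors. Orange lines fill the Igf1 gene between anchors that point inward, and triangles crowd around Bcl6.

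The nearest anchors on either side of a gene pointed toward it at 4 of the 10 genes (Ghr, Jak2, Cish and Igf1), against 32.0% of all protein-coding genes. The stretch between them was 356 kb for Ghr, 291 kb for Jak2, 117 kb for Igf1 and 41.7 kb for Cish, and the median over all genes was 234 kb. These stretches run between anchors whose site centre was outside the gene. For Ghr the upstream site centre lay 17 bp outside and its CTCF summit 17 bp inside, so the Ghr entry rests on this rule. Of these 4 genes, Ghr and Jak2 also held anchors inside the gene span. Among the other genes, Socs2, Igfbp1 and Bcl6 did so. Ghr held a TAD anchor at chr15:3306103-3306703 (CTCF fold 13.4, plus strand motif), and Jak2 held an intra-TAD anchor 2.161 kb past its start (CTCF fold 12.4, Rad21 fold 7.86, minus strand motif). All 10 windows held at least 1 anchor, as did 65.0% of genes, with 24 anchors in all. Of the 74 class sites in the windows, 24.3% were intra-TAD anchors and 8.11% TAD anchors, against 17.3% and 11.2% in the whole class list. The Wilson 95% intervals of these shares, 16 to 35.2 and 3.77 to 16.6, hold the values of the list.

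Overlaps of the class sites with other proteins were near those of the list, while the CTCF peaks as a whole parted from it. Overlap with the cohesin subunit Stag2 was marked at 66 of 74 sites (89.2%, list 88.1%) and with Stag1 at 52 (70.3%, list 70.6%). Overlap with Top2b, a topoisomerase, was marked at 45 (60.8%, list 54.8%). Stag2 was present at 23 of the 24 anchors, the exception being the weak Bcl6 anchor 5.31 kb past the 5′ end. The share over all anchors of the list was not computed. CTCF peaks of the windows had a median fold of 5.05, against 6.66 in the list. A Rad21 peak was missing at 40.9% of them (54 of 132, interval 32.9 to 49.4), against 32.7% in the list. The authors' classes covered 74 of the 132 (56.1%, interval 47.5 to 64.2), against 68.4% in the list. In both cases the value of the list lay outside the interval.

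At 39 of 53 CNC peaks of the windows (73.6%, interval 60.4 to 83.6) the nearest start was that of a member. The same held for 48 of 79 peaks with CTCF (60.8%, interval 49.7 to 70.8), and the intervals overlap. The windows were drawn around the members, and those of Socs2 and Igf1 hold no other protein-coding gene. Such shares are therefore set in part by the windows. In the gene spans themselves lay 29 of the 53 (54.7%) and 31 of the 79 (39.2%). At least 1 CNC peak fell in the span of 9 of the 10 genes, Igfbp1 being the exception, against 19.2% of all genes. Windows, which include the flanks, had a median length of 129 kb for the 10 genes, against 115 kb for all genes. A longer span leaves more room for a peak, and no share was computed for genes of like length. By annotation, 26 of the 53 were in introns, 15 intergenic, 11 in exons outside the coding sequence and 1 in a coding exon. Shares of peaks by nearest start, span and annotation were not computed for the windows of other genes.

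Other genes of the pathway had CNC peaks too, beside 50.3% of all protein-coding genes with at least 1 in the window. The lists hold Stat3 and Igfbp3, whose windows overlap those of members, so some peaks can be counted in both. Among 18 further signalling genes 14 windows held at least 1, with a median of 2.14 per 100 kb, led by Irs2 (4.94), Shc1 (4.48) and Ptpn1 (4.07), a receptor substrate, an adaptor and a phosphatase. Among 12 genes of the insulin-like growth factor system 10 did so, with a median of 1.46, led by Igf2r (4.81), Igfbp6 (4.76) and Igfbp2 (3.13). Among 12 transcription factor genes linked to growth hormone in liver all 12 did so, with a median of 3.01, led by Cebpa (8.77) and Cebpb (6.9). A CNC summit within 1 kb of a start occurred at 4 of 18, 3 of 12 and 3 of 12 of these genes, beside 8 of the 10 and 9.33% of all genes.

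Markers of liver cell types were counted in the same way, because whole liver was used. CNC peaks lay in the windows of 6 of 6 hepatocyte markers, with a median of 4.9 per 100 kb and up to 8.64 at Alb, the albumin gene. The list was split, since Pck1 (0.941) and Serpina1a (0.89) had 1 such peak each. They lay in 3 of 3 windows of endothelial markers (median 1.37, up to 3.37 at Stab2), 2 of 4 of macrophage and leukocyte markers (0.235), 0 of 3 of stellate cell markers and 1 of 3 of cholangiocyte markers, Sox9. For genes chosen as markers of other tissues (Myh6, Gfap, Ins2 and Cd3e) the count was 2 of 4, at Cd3e and Ins2 (median 0.414). Whether cells of whole liver use these genes was not checked. The part of other cell types in the level around the 10 genes was not tested.

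**Figure D4:**
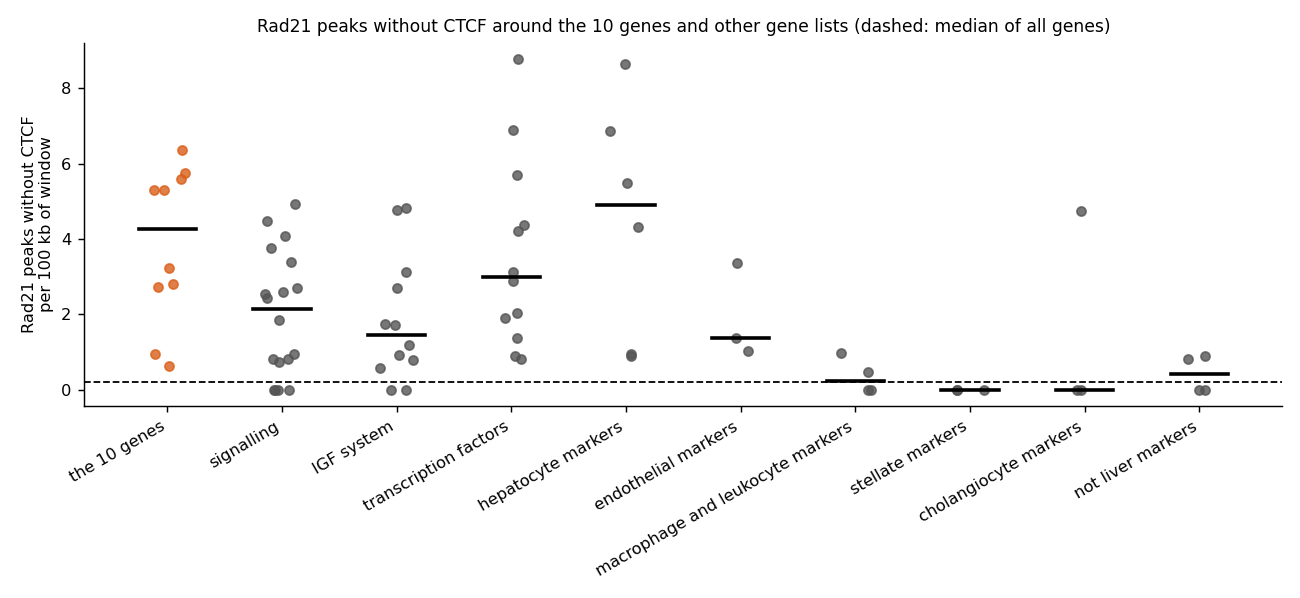
Rad21 peaks without CTCF per 100 kb of window (vertical axis) for the 10 genes and for the genes of 9 other lists, each point 1 gene and each bar a median. The 10 genes (median 4.26) and hepatocyte markers (median 4.9) have the highest medians, and stellate markers are all at 0.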

How the data were processed

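Per the labels, libraries were CTCF or Rad21 ChIP-seq of male mouse liver. According to the methods of the study and the submitters' processing notes, reads of all libraries of a factor were first merged by the authors, mapped to mm9 with Bowtie2, kept unique positions and called peaks with MACS2, then removed blacklisted and duplicate-only peaks. The deposited score, fold (a ratio to local background) and −log10 p columns come from these pooled reads, and the files do not give the depth of single libraries. The deposited class list gives the authors' class, motif score (a log-odds value on a log2 scale) and strand, and flags for Stag1, Stag2 and Top2b from public data, whose order was taken from the study's supplement. Peaks were read 1-based against NCBIM37 and GENCODE vM1. Fragments and background at each summit were recovered from fold and −log10 p; 264 of 264 were whole within 0.02. CTCF motifs were located with the study's matrix, whose best match had the deposited strand at 1994 of 2000 sampled sites. Promoters came from RefSeq (GRCm38.p6) and were placed in NCBIM37 by exact match. Shares carry Wilson and fragments exact Poisson 95% intervals, for counting error only. All members are reported, with their strongest peaks, start peaks, nearest anchors and palindromes. The members and lists were chosen with earlier results of these data known. Python 3.11.15 with pandas 2.3.3, SciPy 1.17.1 and pysam 0.24.0 was used, and code was tested on simulated data.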

Additional observations from a re-analysis of the deposited data

How the results depend on the processing

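No paired analysis was possible because the lists pool all libraries, and for the same reason no library could be left out. Of 82 recomputed values, 70 stayed within the interval of the reported value, or within 1.5 times a reported count. The others were these, and the cause was not tested except where the setting keeps fewer or more peaks. With peaks of score 100 or more, CTCF peaks numbered 82 and Rad21 peaks 76, the share without CTCF was 28.9% (whole list 15.5%), the median folds were 4.24 without and 6.6 with CTCF, and the palindrome share was 4.55%. The share without CTCF was 50.8% with summits within 100 bp (list 36.8%), 49.2% with 50% reciprocal overlap (list 33.7%) and 54.5% against class list sites (list 34.9%). In each of these it stayed above the list. With class list sites the median fold with CTCF was 6.31. With 100 kb flanks anchors numbered 43. With TTCCNGGAA the palindrome share was 0%. As choices made after seeing the data, each window was left out in turn, which gave shares without CTCF of 36.8% to 43% and palindrome shares of 11.6% to 14.3%, and gene spans alone gave 46.8%.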

Other observations

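The letters preferred by other liver transcription factors were also counted within 100 bp of Rad21 summits on both strands, a choice made after seeing the data. TTGCNNAA, a form bound by C/EBP proteins, was at 5 of the 53 Rad21 peaks without CTCF around the 10 genes (9.43%), against 11.7% of all 15321 such peaks. TGTTTAC, the core bound by FOXA proteins, was at 3 of 53 (5.66%), against 4.32%. CAAAGTCC, part of the HNF4A motif, was at 0 of 53, which allows a share of up to 6.76%, against 2.41%. The list's values lay within the Wilson 95% intervals of the member shares (4.1 to 20.3 and 1.94 to 15.4) for the first and the second. At places 2 kb from the member summits TTGCNNAA was at 0 of 53 on the higher-coordinate side and 9 on the lower, and TGTTTAC was at 4 (7.55%, interval 2.97 to 17.9, list 2.87%) and 0. CAAAGTCC was at 1 and 0 of 53 such places.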
